A study of Mus musculus with 38 samples.

Results

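Homeobox developmental genes were followed in the open chromatin of mouse CD8+ T cells, the cytotoxic lymphocytes that recognise and kill tumour cells. The set comprised 81 of 20665 autosomal protein-coding genes: the Hoxa, Hoxb, Hoxc and Hoxd clusters and the Nkx, Lhx, Dlx, Six-family and Pax genes, with the lymphocyte gene Pax5 left out. A peak of accessible chromatin was counted with the set when its nearest gene body, at most 100000 bp away, was one of these genes. A peak inside only 1 gene body went to that gene, however near another gene started. This gave 261 of 73610 peaks, at 73 of the 81 genes, in the table of endogenous tumour cells, and 504 of 169323 peaks, at 77 genes, in the table of naive and OT-1 cells. Genes without a peak by this rule in the first table included Hoxa2, Hoxa4, Hoxa5, Hoxa6, Hoxc13, Hoxd4 and Six5. Hoxa5, Hoxd4 and Six5 also lacked one in the second. Of the peaks, 255 and 290 had a mean of 10 or more normalized reads over all libraries of their table and were tested, and the rest are in the counts of deposited peaks only. Lhx9 had the most peaks in the endogenous table, 14, and Lhx2 in the other, 23. A gene's peaks share its locus and are not independent of each other, and 1 and 4 peaks lay at equal distance from a gene of the set and another gene.

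Accessibility was measured with ATAC-seq, in which the Tn5 transposase cuts open DNA and leaves sequencing adapters there. All cells came from C57BL/6J mice labelled wild type, either young (10-12 weeks) or aged (64-68 weeks). Endogenous CD8+ T cells were sorted at day 15 from B16-OVA tumours, a mouse melanoma line that makes ovalbumin, as Tprog (Slamf6+ Tim-3-, progenitor exhausted; young n = 4, aged n = 3), Tterm (Slamf6- Tim-3+, terminally exhausted; young n = 5, aged n = 3) and, from aged mice, Tadys (Slamf6- Tim-3-, described as age-associated dysfunctional; n = 2). OT-1 cells, whose transgenic receptor recognises ovalbumin, were sorted from such tumours as Tprog (young n = 2, aged n = 2) and Tterm (young n = 7, aged n = 6), and the hosts they had been in are not given in the labels used here. Naive CD8+ T cells came from spleen (young n = 2, aged n = 2). Each library was a pool of 5000 to 50000 sorted cells. Endogenous libraries all carried 1 shared label for batches 1 and 2. Which library belonged to which batch is not given, so no batch term was possible for them. Naive libraries were all of batch 3 and OT-1 libraries of batches 4 to 6, so cell state, organ and batch cannot be told apart between them. Aged OT-1 Tprog libraries were all of batch 6, and young ones of batches 4 and 5, so every value for aged OT-1 Tprog rests on a batch term estimated from the Tterm libraries.

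Homeobox genes encode transcription factors that bind DNA through the homeodomain and set positional and organ identity in the embryo. The Hox genes lie in 4 clusters whose gene order follows the body axis, and Pax proteins carry a paired domain with, in most members, a homeodomain. In differentiated cells most of these genes are silent, and their CpG-rich promoters are the best known targets of Polycomb complexes, which place H3K27 and H2A marks and compact chromatin. Hoxa genes are active in blood stem and progenitor cells and are shut down as lymphocytes mature. A peak near a gene reports open DNA there, not transcription of the gene.

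The promoters of the set were rich in GC and in CG dinucleotides. The table of RefSeq promoters (GRCm38.p6, the assembly behind mm10) held 63 windows of 53 genes of the set. Their median GC content was 60.0%, against 57.0% over all 20085 promoter windows. The median number of CG dinucleotides was 17 against 14, and 55.6% against 46.5% of windows had a GC content of at least 50% with an observed-to-expected CG ratio above 0.6. Those windows also run past the start site. As examples, the 250 bases before it are printed for 5 windows, 5′ to 3′ with every CG dinucleotide in capitals. The CG counts of these shorter stretches are not comparable with the medians. Each ends at an annotated start site of its gene and lies in a peak called in a comparison below. The peaks of the Lhx2 and Pax9 windows lie within the gene, more than 1000 bp from the ends of its body. Hoxa11 and Hoxa3 represent the cluster that was less open in tumour OT-1 cells than in naive cells, Lhx2 and Nkx1-2 other promoters that were lower in a tumour subset, and Pax9 a promoter that was higher.
Hoxa11 (chr6:52245811-52246060, minus strand): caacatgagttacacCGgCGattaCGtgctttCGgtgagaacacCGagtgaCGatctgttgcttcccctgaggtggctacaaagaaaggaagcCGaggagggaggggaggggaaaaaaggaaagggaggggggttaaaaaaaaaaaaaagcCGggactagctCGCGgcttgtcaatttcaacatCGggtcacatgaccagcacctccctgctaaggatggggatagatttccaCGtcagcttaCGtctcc
Hoxa3 (chr6:52213068-52213317, minus strand): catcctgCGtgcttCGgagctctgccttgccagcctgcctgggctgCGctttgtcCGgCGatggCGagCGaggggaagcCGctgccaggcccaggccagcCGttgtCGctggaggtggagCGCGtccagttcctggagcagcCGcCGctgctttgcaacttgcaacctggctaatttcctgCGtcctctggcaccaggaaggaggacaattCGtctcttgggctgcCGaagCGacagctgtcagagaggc
Lhx2 (chr2:38351058-38351307, plus strand): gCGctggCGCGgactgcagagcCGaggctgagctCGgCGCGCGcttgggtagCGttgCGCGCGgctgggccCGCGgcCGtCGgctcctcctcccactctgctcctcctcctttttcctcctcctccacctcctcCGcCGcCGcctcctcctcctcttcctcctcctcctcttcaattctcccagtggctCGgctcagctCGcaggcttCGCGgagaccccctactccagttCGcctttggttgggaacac
Nkx1-2 (chr7:132599638-132599887, minus strand): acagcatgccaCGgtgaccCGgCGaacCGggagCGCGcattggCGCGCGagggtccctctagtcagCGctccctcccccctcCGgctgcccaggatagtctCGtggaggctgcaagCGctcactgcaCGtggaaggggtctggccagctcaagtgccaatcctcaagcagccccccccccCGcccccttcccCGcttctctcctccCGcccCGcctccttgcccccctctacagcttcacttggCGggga
Pax9 (chr12:56695221-56695470, plus strand): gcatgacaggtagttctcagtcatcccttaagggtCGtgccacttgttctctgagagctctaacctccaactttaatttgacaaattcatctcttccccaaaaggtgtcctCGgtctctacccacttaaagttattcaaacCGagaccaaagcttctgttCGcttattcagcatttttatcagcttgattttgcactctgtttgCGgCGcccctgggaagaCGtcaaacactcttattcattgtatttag
Lhx2 held 24 CG dinucleotides at 68.4% GC, Nkx1-2 19 at 69.6%, Hoxa3 18 at 64.8% and Hoxa11 13 at 52.0%. Pax9 stood lowest with 7 at 43.6%. Short motifs were searched on both strands of all whole windows. An AP-1 site (TGANTCA) was found in 6.35% of homeobox windows and 7.06% of all windows, a TCF site (CTTTGAT) in 3.17% and 3.26%, and the homeodomain core (TAATTA) in 3.17% and 4.48%. The RUNX motif (TGTGGT) was found in 3.17% of the homeobox windows against 14.8% of all, and the ETS motif (CCGGAAG) in 1.59% against 11.9%. None of the 5 printed stretches held a searched motif.

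Depth ranged from 4.64 to 87.6 megareads in peaks per library in the endogenous table and from 6.80 to 27.7 megareads in the other. The tables were normalized apart, so each comparison stays within one. Gene-end peaks, which lay no more than 1000 bp from where a gene starts or stops, were present at 7 of 7 CD8 T cell marker genes in the endogenous table and at 6 of 7 in the other. Of 7 melanocyte and melanoma genes, Pmel, Tyr and Tyrp1 had no such peak in either table, and the other 4 summed to 718 to 1135 normalized reads in endogenous libraries, 393 to 598 in naive and 344 to 636 in OT-1 libraries. Of the 4, Mitf (median over libraries 660 and 277 in the 2 tables) and Mlana (253 and 135) stood highest. Dct and Sox10 had medians of at most 18.3. Aged naive libraries stood above young naive libraries in the summed gene-end peaks of 5 of 8 myeloid genes (1281 to 1430 against 832 to 932) and 3 of 6 NK cell genes (1794 to 1889 against 994 to 1065). Eomes had the highest median of those 3 NK cell genes, 1120 over all naive and OT-1 libraries, beside 233 at Fcer1g and 148 at Klrb1c. B cell genes, 4 of 7 with a peak, summed to 210 to 216 in aged and 267 to 285 in young naive libraries. One aged OT-1 Tprog library, replicate 1, stood apart from its partner: 34.3% of its reads lay in gene-end peaks against 42.6% in replicate 2, and its single highest peak held 3.40% of its reads against 1.64%.

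Homeobox peaks at gene ends were less accessible than gene-end peaks at large. Their median was 95.0 normalized reads in the endogenous table, against 485 over all gene-end peaks, and 19.9 against 145 in the naive and OT-1 table. Over peaks of every position the medians were 56.5 against 86.9 in the first table and 12.3 against 9.86 in the second. Homeobox peaks lay at gene ends more often, 31.4% against 18.9% and 26.0% against 10.6%, and their gene-end peaks were narrower, with a median width of 1017 bp against 1460 bp in the endogenous table. The highest level per kb of the set was at a narrow peak 9350 bp from Nkx2-6, a gene of the pharynx and heart primordium (chr14:69161993-69162452), with a mean of 1506 normalized reads over endogenous libraries, or 3280 per kb.

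Across comparisons the homeobox peaks were mostly called less often than the background (the share of all tested peaks called). A peak is called where the limma adjusted p is below 0.05, taken over all peaks of the table. In young endogenous Tterm against Tprog, 22 of 255 homeobox peaks (8.63%) were called, against 25.6% of all peaks. In aged OT-1 Tterm against naive cells, with the highest share, 101 of 290 homeobox peaks (34.8%) were called, against 47.7% of all peaks. The plot of called shares shows the same by direction. Tested homeobox peaks had medians of 60.7 (endogenous) and 26.9 normalized reads, against 91.2 and 39.5 over all tested peaks. The shares called were not matched for read level. These are bulk libraries, so a smaller share of open cells and less opening per cell cannot be told apart.

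**Figure D1:**
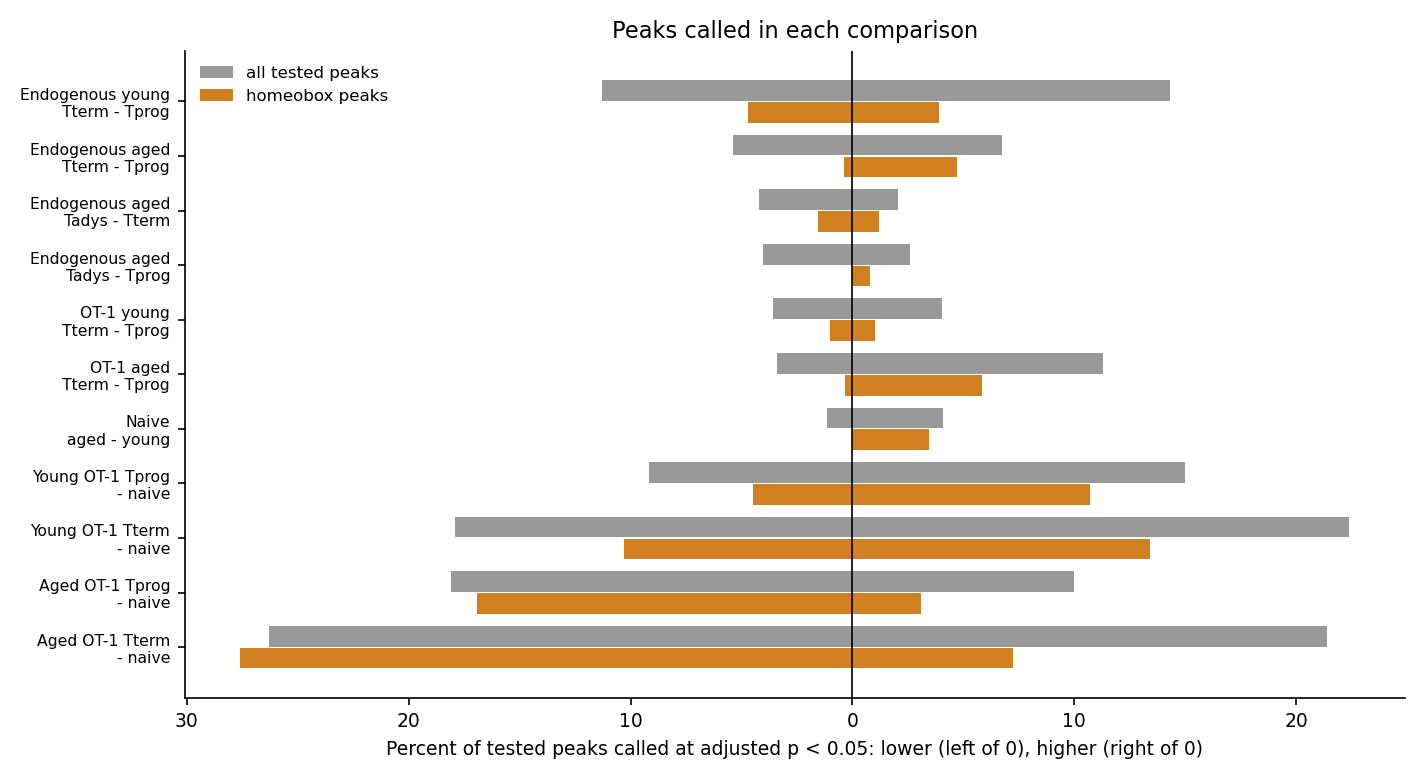
Percent of tested peaks called higher (right of 0) or lower (left of 0) in each comparison that called a homeobox peak, for all tested peaks (grey) and for homeobox peaks (orange). The orange bars are shorter than the grey ones except for lower calls in aged OT-1 Tterm against naive cells.

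The Hoxa cluster was less accessible in tumour OT-1 cells than in splenic naive cells at both ages. Summed over the cluster, young naive libraries had 2389 and 2493 normalized reads and aged naive libraries 2781 and 3154. Young OT-1 Tprog libraries had 1351 and 1385, aged Tprog 1494 and 1498, young Tterm from 1268 to 1886 with a median of 1472, and aged Tterm from 1156 to 1739 with a median of 1228.5. No OT-1 library reached a naive library, and none did in RPM either (reads scaled by the library's total in peaks), where naive libraries lay between 234.1 and 254.0 and OT-1 libraries between 94.62 and 188.7. In young Tterm against naive, 12 of 28 tested Hoxa peaks were lower and none was higher, with a median log2 difference of -0.89, against a median of 0.04 over all 290 homeobox peaks and a background of 17.9% called lower. In aged Tterm against naive, 25 of 28 were lower and none was higher, with a median of -1.35 against -0.52, and a background of 26.3% called lower. Young Tprog gave 7 of 28 lower (background 9.15%) and aged Tprog 9 of 28 (background 18.1%). These comparisons share their naive libraries within an age, and whether the difference from naive itself differed by age was not tested. The counts rest on few naive libraries: the young Tterm count was 6 without young naive replicate 1 and 4, with 1 higher, without replicate 2, and the aged Tterm count was 8 without aged naive replicate 1 and 14 without replicate 2. The young Tprog count was 4 and 2 without young naive replicates 1 and 2 and 4 and 3 without Tprog replicates 1 and 2, and the aged Tprog count 5 and 6 without aged naive replicates 1 and 2.

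**Figure D2:**
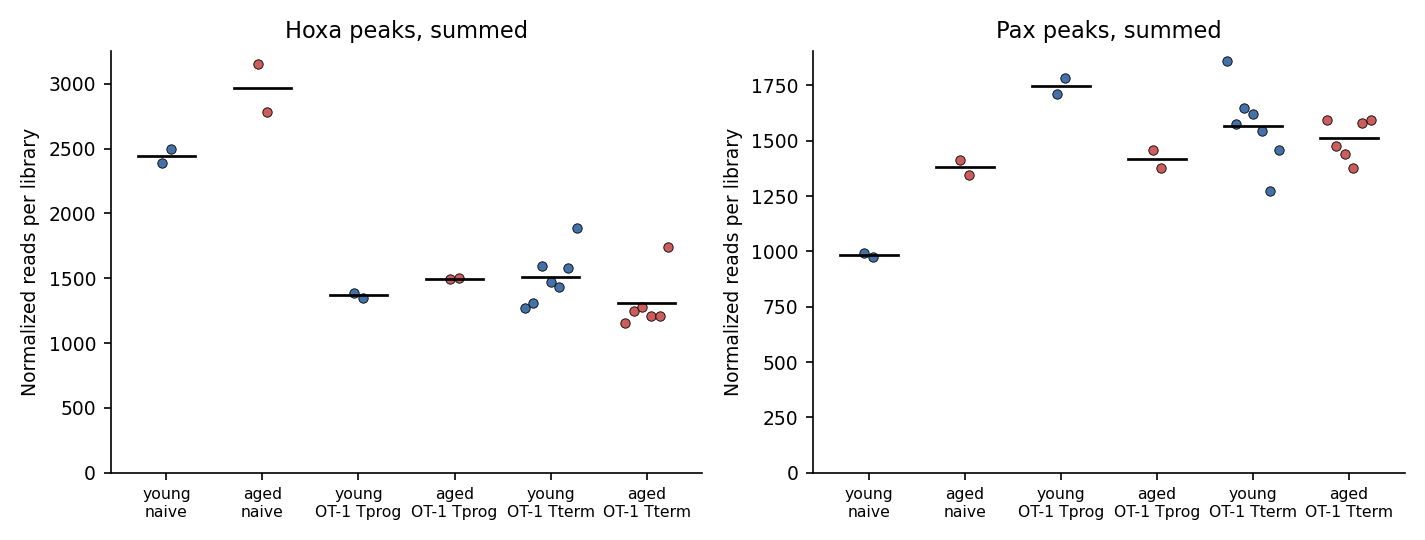
Normalized reads summed over the Hoxa peaks (left) and the Pax peaks (right) in each naive and OT-1 library, one point per library (blue young, red aged) with a line at the group mean. Every naive library lies above every OT-1 library for Hoxa, and both young naive libraries lie lowest for Pax.

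Hoxa3, needed for thymus and pharyngeal arch development, had a tested peak inside its gene body and another at its promoter. The first was centred 20899 bp from the nearest annotated Hoxa3 start site. Whether another Hoxa gene started nearer to it was not compared. The peak inside the gene body (chr6:52191902-52192434) fell from 78.4 and 94.6 in young naive cells to 22.2 to 35.7 (median 30.0) in young Tterm, by 1.66 ± 0.36 on the log2 scale (SE; limma adjusted p = 0.000734). In aged mice it had 108 and 85.0 in naive cells and 15.0 to 29.4 (median 27.3) in Tterm, a difference of -1.96 ± 0.36 (0.000135). The promoter peak that holds the printed Hoxa3 window (chr6:52211169-52213537) was the highest of the cluster. It had 507 and 439 in aged naive cells, 366 and 355 in young naive cells, 169 to 405 (median 263) in young Tterm and 170 to 299 (median 238) in aged Tterm. It was called in aged Tterm (-1.10 ± 0.27, adjusted p = 0.00216; 0.0512 without aged naive replicate 1, the highest of 0.000171 to 0.0512 over the alternatives) and not in young Tterm, where the ranges overlapped.

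Hoxa7 and Hoxa9, with known roles in blood progenitors, were lower too. The Hoxa7 gene-end peak (chr6:52217043-52218127) had 152 and 129 normalized reads in young naive and 156 and 148 in aged naive cells. Young Tterm had 23.2 to 113 (median 58.6) and aged Tterm 46.4 to 107 (median 56.2), and the differences of -1.63 ± 0.34 (adjusted p = 0.000427) and -1.47 ± 0.34 (0.00121) held under each alternative. At the Hoxa9 gene end (chr6:52221157-52222346) young naive cells had 215 and 242 and young Tprog 88.1 and 81.3, a difference of -1.42 ± 0.30 (adjusted p = 0.00125) that also held. Young Tterm, at 112 to 227 with a median of 174, overlapped the naive libraries and stood above Tprog by 0.82 (adjusted p = 0.0411, over the alternatives 0.00782 to 0.338; lost without either young Tprog library, without Tterm replicate 3, 4 or 5, and with no filter on low peaks).

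Hoxa11 and Hoxa13, at the 5′ side of the cluster, pattern limb and reproductive tract. The peak over the printed Hoxa11 promoter (chr6:52245042-52246969) had 138 and 156 in young naive, 200 and 182 in aged naive, 65.9 to 105 (median 77.7) in young Tterm and 49.3 to 96.8 (median 73.8) in aged Tterm. Naive and Tterm libraries did not overlap. The difference was -1.44 ± 0.27 in aged Tterm (adjusted p = 0.000175, held under each alternative) and -0.93 ± 0.27 in young Tterm (0.00844, over the alternatives 0.00276 to 0.106, the last without young naive replicate 2). A peak 4737 bp from Hoxa13 (chr6:52252457-52254116) had 139 and 109 in aged naive cells against 20.0 to 88.1 (median 48.3) in aged Tterm, a difference of -1.46 ± 0.34 (adjusted p = 0.00131) that held. The plot along the cluster gives the difference at 23 tested peaks of 7 Hoxa genes.

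**Figure D3:**
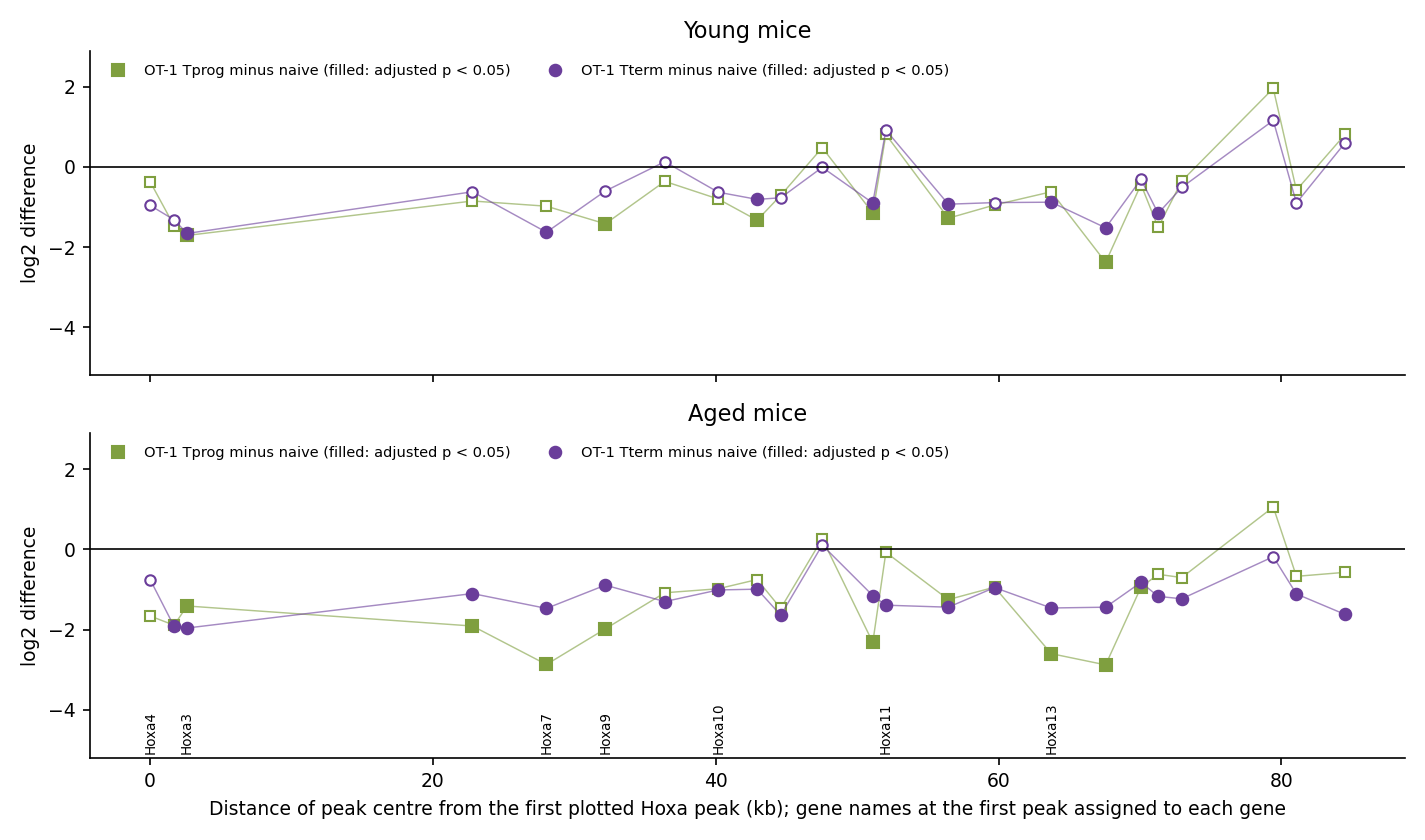
Log2 difference from naive cells at 23 tested peaks of 7 Hoxa genes, by distance in kb from the first of them, for OT-1 Tprog (green squares) and OT-1 Tterm (purple circles) in young (top) and aged (bottom) mice; filled marks were called. In aged Tterm 20 of 23 marks are filled, all below 0, and in young Tterm 8 are, also all below 0.

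Pax genes moved the other way in young mice. Their peaks summed to 974 and 992 normalized reads in young naive libraries and to 1346 and 1415 in aged naive libraries. Young OT-1 Tprog libraries had 1713 and 1785 and young Tterm 1271 to 1862, with a median of 1577, all above the young naive libraries. In RPM, young Tterm (85.02 to 182.9) overlapped young naive (94.19 to 97.23). In young Tterm against naive 16 of 37 tested Pax peaks were higher and 1 was lower, with a median log2 difference of 0.99, against a background of 22.4% called higher. In young Tprog 14 were higher and 1 lower (background 15%), with a median of 1.14. In aged mice 8 were higher and 1 lower in Tterm (background 21.4%), with a median of 0.04, and 1 higher and 2 lower in Tprog (background 10% higher), which became 4 higher and none lower with equal totals. The young Tterm count was 11 higher without either young naive library, and 13 higher and 3 lower with libraries scaled to equal totals. The young Tprog count of higher peaks was 7 and 4 without young naive replicates 1 and 2, 8 and 5 without Tprog replicates 1 and 2. The aged Tterm count of higher peaks was 3 and 2 without aged naive replicates 1 and 2.

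The called Pax peaks in young Tterm lay at Pax6 (7 of 12 tested), Pax3 (4 of 7), Pax2 (3 of 6) and Pax9 (2 of 3), and the lower one at Pax7. Pax6, the master regulator of eye development, had its highest peak inside the gene (chr2:105674769-105676876). Young naive libraries had 77.8 and 63.3 normalized reads there, young Tprog 161 and 165 and young Tterm 149 to 205 with a median of 172. Both tumour subsets lay above young naive cells without overlap, Tprog within the range of Tterm, and the differences from naive were 1.20 ± 0.29 (Tprog; adjusted p = 0.00404, over the alternatives 0.000147 to 0.0621, the last without young naive replicate 2) and 1.25 ± 0.24 (Tterm; 0.000207, held under each alternative). Another peak, at the Pax6 gene end (chr2:105669427-105670332), had 15.4 and 12.8 in young naive cells and 24.4 to 55.0 (median 46.7) in young Tterm, a difference of 1.62 ± 0.33 (adjusted p = 0.000364) that held.

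At Pax3, which acts in neural crest and muscle and is also expressed by melanocytes, a gene-end peak (chr1:78195959-78197667) had 41.8 and 25.7 normalized reads in young naive cells. Young Tterm had 73.3 to 146 with a median of 92.5, above both, by 1.67 ± 0.31 (adjusted p = 0.000132, held under each alternative). In aged mice naive cells had 57.1 and 35.3 and Tterm 65.0 to 113 (median 95.2), a difference of 1.06 (adjusted p = 0.00779, over the alternatives 0.00123 to 0.178, the last without aged naive replicate 2). The melanocyte genes Pmel, Tyr and Tyrp1 had no gene-end peak in this table, and the summed reads of the other 4 in young naive libraries (393 to 400) lay within the range of young Tterm (344 to 636). Their part in the Pax3 result was not tested. At the printed Pax9 promoter, a gene of pharyngeal pouch and tooth development (chr12:56695208-56696110), levels were low: 17.4 and 12.0 in young naive, 15.1 and 9.80 in aged naive, 22.6 to 46.4 (median 39.6) in young Tterm and 25.2 to 47.7 (median 36.1) in aged Tterm. Tterm lay above naive at both ages, by 1.51 ± 0.35 in aged (adjusted p = 0.00127, held) and 1.29 ± 0.35 in young mice (0.0047, over the alternatives 0.00349 to 0.107, the last without young naive replicate 2).

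Calls in the other families went both ways. In young Tterm against naive, Lhx peaks were higher at 5 and lower at 9 of 48, Nkx peaks higher at 7 and lower at 3 of 51, Dlx peaks higher at 4 and lower at 3 of 25, and Six-family peaks split 1 and 1 of 19. The Hoxb, Hoxc and Hoxd clusters gave 1 of 30, 3 of 30 and 2 of 22 higher, and 0, 0 and 1 lower. In aged Tterm against naive, lower calls reached 14 of 48 for Lhx, 12 of 51 for Nkx, 8 of 30 for Hoxb, 7 of 22 for Hoxd, 6 of 25 for Dlx, 5 of 30 for Hoxc and 2 of 19 for Six-family genes, with 5, 2, 2, 0, 3, 1 and 0 higher. These were 10.5% to 31.8% of a family lower, against 26.3% of all peaks, and 0% to 12% higher, against 21.4%. Over the whole set young Tterm gave 39 higher and 30 lower, 69 of 290 against a background of 40.3% called in either direction, and aged Tterm 21 higher (7.24%) and 80 lower (27.6%, near the 26.3% of all peaks). With libraries scaled to equal totals, the young split became 31 higher and 51 lower. The young total of 69 was 37 and 33 without young naive replicates 1 and 2, and the aged total of 101 was 27 and 41 without aged naive replicates 1 and 2.

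Single peaks of these families are described next, at the gene end for Dlx6 and Nkx2-4 and within the gene for Lhx2. Dlx6, a gene of jaw and limb development (chr6:6863528-6864910), had 17.4 and 15.2 normalized reads in young naive cells, 83.7 and 53.0 in young Tprog and 48.4 to 99.4 (median 76.5) in young Tterm. Both tumour subsets were higher than naive cells, by 1.97 ± 0.39 (adjusted p = 0.000625) and 2.19 ± 0.32 (7.19e-06), and held under each alternative. Nkx2-4, a gene of the developing hypothalamus (chr2:147083530-147086183), was lower in Tterm: aged naive cells had 276 and 258 and aged Tterm 63.6 to 187 (median 113), a difference of -1.30 ± 0.28 (adjusted p = 0.000658) that held. Lhx2, a forebrain, eye and hair follicle regulator whose promoter is printed above (chr2:38350350-38352528), had 231 and 233 in young naive cells, 118 and 121 in young Tprog and 147 to 286 (median 206) in young Tterm. The young Tprog difference from naive was -0.95 ± 0.26 (limma adjusted p = 0.0108), and its call was lost without any 1 of the 4 libraries. Aged Tterm was also lower than aged naive cells at this peak, by -0.88 (limma adjusted p = 0.00214). That call was lost only without aged naive replicate 1.

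**Figure D4:**
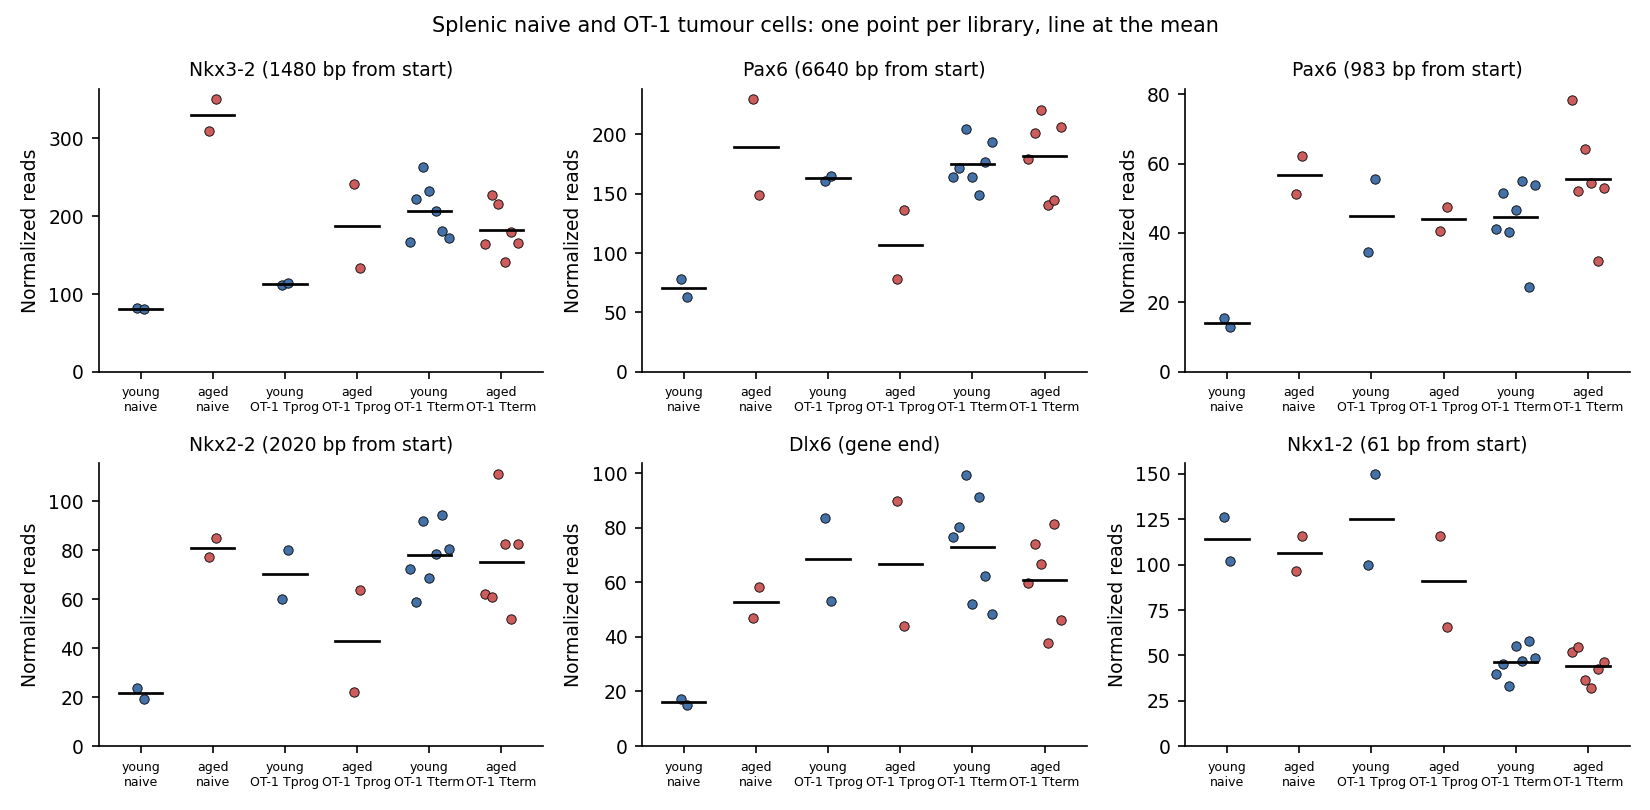
Normalized reads at 6 homeobox peaks in naive and OT-1 libraries, one point per library (blue young, red aged) with a line at the group mean. At 5 peaks the 2 young naive libraries lie below the aged naive ones, and at Nkx1-2 all Tterm libraries lie below all others.

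Between the tumour subsets, endogenous Tterm and Tprog differed at few homeobox peaks. In young mice 10 of 255 were higher in Tterm and 12 lower, against backgrounds of 14.3% and 11.3%. With libraries scaled to equal totals the young split became 8 higher and 27 lower, and with DESeq2 on the recovered reads 11 and 23. The young total of 22 was 14 without Tterm replicate 4 or Tprog replicate 3. In aged mice 12 were higher and 1 lower, against 6.75% and 5.37%, and 12.1% in both directions. The aged count fell to 0 without Tterm replicate 3 and to 5 without Tterm replicate 2 or Tprog replicate 3. In young mice the median log2 difference was -0.08 over homeobox peaks and -0.01 over all peaks, and in aged mice 0.16 and 0.01. No interaction of age and subset was called by limma at any peak of the table, homeobox or other (background 0%), where 19 homeobox peaks had an unadjusted p below 0.05. For that interaction edgeR and DESeq2 also called 0 homeobox peaks. At gene ends, 2 of 81 homeobox peaks were higher and 6 lower in young Tterm, against 3103 higher and 868 lower of all 13828. In aged Tterm 4 of the 81 were higher and 1 lower, against 473 and 332 of all. Tested homeobox gene-end peaks had a median of 96.2 normalized reads, against 487 over all tested gene-end peaks. These counts were not compared at matched read levels. A total of 5 peaks were called the same way in young and aged mice, near Lhx5, Hoxd3, Hoxb13 (another peak than the one described next), Pax6 and Nkx1-1. The young Pax6 call (0.50, adjusted p = 0.0386, over the alternatives 0.025 to 0.23) was lost with equal totals, edgeR and DESeq2 and without any 1 of 6 of the 9 young libraries.

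The lowest adjusted p was at a peak 9169 bp from Lhx5, a forebrain regulator (chr5:120421940-120422717). Young Tprog had 21.3, 18.4, 19.8 and 23.1 normalized reads (mean 20.6 ± 2.03 SD, n = 4) and young Tterm 54.4, 67.3, 91.7, 76.6 and 99.1 (77.8 ± 18.1, n = 5). Every Tterm library exceeded every Tprog library, by 1.84 ± 0.38 (adjusted p = 0.000519), under each alternative. Aged Tprog had 34.6, 44.4 and 9.97 and aged Tterm 52.5, 91.1 and 75.4, again without overlap, and the difference of 1.47 ± 0.46 (0.0327, over the alternatives 0.0148 to 0.273) was lost without Tterm replicate 2 or 3 or Tprog replicate 3.

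Peaks of 3 Hox genes were higher in young Tterm. Hoxc10, a gene of hindlimb motor neurons (chr15:102966126-102967777), had 232, 209, 222 and 191 in young Tprog and 309, 318, 524, 431 and 294 in young Tterm, a difference of 0.78 ± 0.16 (adjusted p = 0.000568). A gene-end peak of Hoxd3, a gene of the neck vertebrae (chr2:74749135-74750176), had 307, 245, 316 and 239 in young Tprog and 377, 330, 497, 505 and 381 in young Tterm, a difference of 0.58 ± 0.15 (0.00446). Near Hoxb13, a prostate and tail gene (chr11:96202748-96203708, 6138 bp from it), Tprog had 52.0, 88.3, 83.9 and 61.4 and Tterm 109, 110, 146, 146 and 143, a difference of 0.88 ± 0.22 (0.00301). None of the 3 showed overlap between the young subsets, and each call held under each alternative. The Hoxd3 peak also rose in aged mice, from 354, 337 and 327 to 590, 462 and 515, by 0.62 ± 0.18 (adjusted p = 0.0248, over the alternatives 0.00856 to 0.11; lost without Tterm replicate 1 or 3 or Tprog replicate 2 or 3).

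Nkx genes went both ways. The intense peak near Nkx2-6 introduced above had 752, 1450, 1350 and 1270 in young Tprog and 1710, 1650, 2120, 2130 and 1910 in young Tterm, a difference of 0.70 ± 0.17 (adjusted p = 0.00259) that held under each alternative. At the gene end of Nkx1-1, expressed in the developing nervous system (chr5:33430865-33431835), Tprog had 66.2, 72.6, 58.6 and 80.5 and Tterm 33.8, 31.7, 16.0, 28.0 and 33.4. Tterm was lower without overlap, by -1.29 ± 0.33 (adjusted p = 0.00392), under each alternative. Aged Tprog had 61.5, 60.6 and 94.7 and aged Tterm 40.5, 21.4 and 16.6, a difference of -1.50 ± 0.40 (0.0113, over the alternatives 0.00239 to 0.081; lost without Tterm replicate 3 or Tprog replicate 3). The Lhx1 gene-end peak (chr11:84523442-84526358), an early head and kidney gene, was lower in young Tterm by -0.66 ± 0.20 (adjusted p = 0.0131), with 272, 241, 253 and 423 in Tprog against 191, 179, 154, 152 and 251. Those ranges overlapped, and without Tprog replicate 4 the adjusted p was 0.0976, the highest of 0.00327 to 0.0976 over the alternatives.

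**Figure D5:**
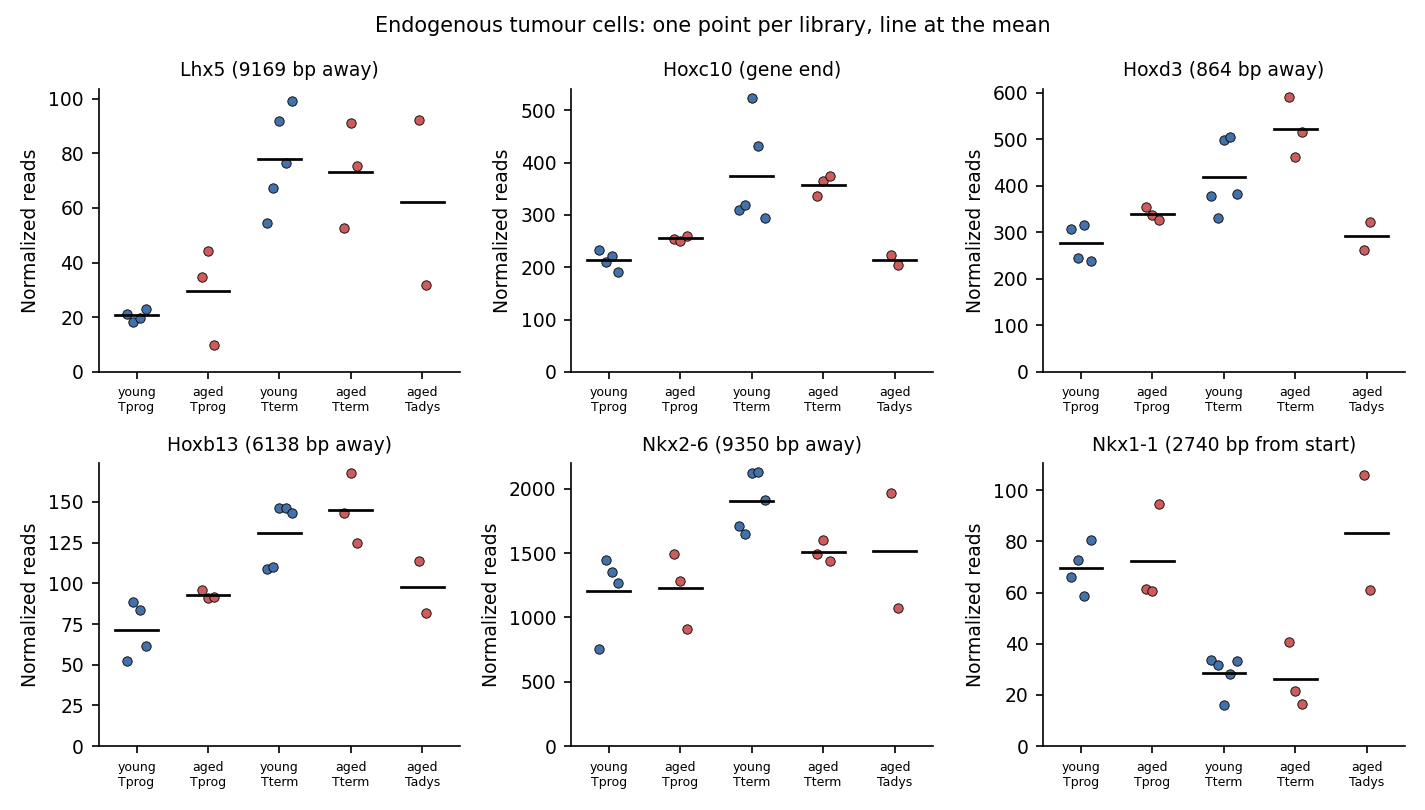
Normalized reads at 6 homeobox peaks in endogenous tumour libraries, one point per library (blue young, red aged) with a line at the group mean. Young Tterm lies above young Tprog at 5 peaks and below it at Nkx1-1, without overlap, and both Tadys libraries lie below every aged Tterm library at Hoxc10 and Hoxd3.

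OT-1 cells gave fewer such calls in young mice. Of 290 homeobox peaks, 3 were higher and 3 lower in young OT-1 Tterm against Tprog (2.07%), against 7.63% of all peaks (4.06% higher, 3.57% lower). The total of 6 was 3 and 0 without Tprog replicates 1 and 2, the latter with limma. The lower ones were a distal Nkx1-1 peak and a pair of peaks at Nkx1-2. The Nkx1-2 promoter, printed above (chr7:132598886-132600511), had 100 and 150 normalized reads in young Tprog and 33.1 to 57.7 (median 46.8) in young Tterm, a difference of -1.46 ± 0.28 (adjusted p = 0.00136, over the alternatives 1.94e-05 to 0.111, the last without Tprog replicate 2). Naive cells, at 126 and 102 (young) and 96.6 and 116 (aged), lay with Tprog, and Tterm was below naive by -1.35 ± 0.28 in young (0.000478) and -1.31 ± 0.28 in aged mice (0.000664), both under each alternative. A pair of Nkx1-2 peaks was also lower in young endogenous Tterm. Over 210 pairs of peaks that overlapped between the tables by at least 50% of the shorter one, 132 had the same sign of Tterm minus Tprog in young endogenous and young OT-1 cells (Pearson r = 0.35, Spearman rho = 0.32 across peaks, which are not independent). Of the 21 pairs called in endogenous cells, 17 had the same sign in OT-1 cells, and of the 5 called in OT-1 cells all 5 did in endogenous cells. Aged cells gave 126 of 210 pairs with the same sign (Pearson r = 0.32), with 2 unlike OT-1 Tprog libraries. No such pairing was made over all peaks, so no background stands beside these counts.

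In aged OT-1 cells 17 peaks were higher and 1 lower in Tterm (6.21%), against 14.7% of all peaks (11.3% higher, 3.39% lower). This count depended on the Tprog libraries: it was 1 without replicate 1, which stands apart as described, and 52 without replicate 2. It was 5 with equal library totals, with 1 higher and 4 lower, and 6 with no batch term, with 3 each way. Batch 6 alone gave 0 calls with limma and 11 peaks at an unadjusted p below 0.05. No single peak of that comparison is described here.

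Tadys cells differed from the other aged endogenous subsets at few homeobox peaks. Against Tterm 3 of 255 were higher and 4 lower, with a background of 6.3% (2.06% higher and 4.23% lower), and against Tprog 2 were higher and none lower, with a background of 6.65% (2.61% higher and 4.04% lower). Both comparisons use the same 2 Tadys libraries. The lower peaks were at Pax6, Hoxd3, Hoxc10 and Hoxa3. Pax6 (chr2:105674875-105676872) had 242 and 260 in Tadys against 524, 375 and 702 in Tterm and 307, 338 and 282 in Tprog, and the Hoxd3 peak 262 and 322 against 590, 462 and 515. The differences from Tterm were -1.04 ± 0.24 (adjusted p = 0.0121, over the alternatives 0.00126 to 0.0781) and -0.84 ± 0.20 (0.0155, 0.00471 to 0.128). Hoxc10 had 224 and 205 in Tadys against 336, 364 and 374, a difference of -0.73 ± 0.22 (0.042, 0.028 to 0.131), and the Hoxa3 promoter, at 489 and 295 against 576, 638 and 697, differed by -0.74 (0.043, 0.0166 to 0.371). Equal library totals and edgeR on the recovered reads each ended the Hoxc10 and Hoxa3 calls, and the fit with a replicate block also ended the Hoxa3 call.

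A peak 39281 bp from Hoxb1, a hindbrain gene (chr11:96407535-96408118), stood out upward, with 128 and 106 in Tadys, 36.2, 40.0 and 57.2 in aged Tterm and 26.9, 45.8 and 45.7 in aged Tprog. Tadys exceeded both subsets without overlap, by 1.40 over Tterm (adjusted p = 0.0377, over the alternatives 0.009 to 0.175) and 1.58 over Tprog (0.0205, 0.00825 to 0.134). Young Tprog, at 99.3, 44.1, 86.3 and 82.9, lay below both Tadys libraries. Nkx1-1 had 106 and 60.8 in Tadys, near aged Tprog (61.5, 60.6 and 94.7) and above aged Tterm, by 1.68 ± 0.44 (adjusted p = 0.0233, 0.00584 to 0.199). Every Tadys call described was lost when at least 1 library was left out: Tadys replicate 1 for all but Hoxa3, Tadys replicate 2 for Hoxa3, Hoxc10 and Hoxb1 against Tterm, aged Tterm replicate 1 for Hoxa3, Hoxc10, Hoxd3 and Hoxb1 against Tterm, Tterm replicate 2 for Hoxa3, Hoxc10, Hoxb1 and Nkx1-1, Tterm replicate 3 for those 4 and Pax6, and Tprog replicate 1 for Hoxb1 against Tprog. The summed NK cell gene-end peaks, 2 of 6 genes, were lower in Tadys (1670 to 1715) than in aged Tprog (2424 to 2586) and Tterm (2123 to 2844). Those 2 genes were Eomes, with a median of 2190 over all endogenous libraries, and Klrb1c, with 223. Other marker sums also stood apart in Tadys: fibroblast genes (2 of 7 with a peak) at 292 to 403 against 415 to 560 in Tprog and 532 to 683 in Tterm, CD4 and regulatory T cell genes (3 of 5) at 2156 to 2515 against 2544 to 2820 and 2661 to 2853, and endothelial genes (1 of 5) at 84 to 88 against 25 to 58 and 26 to 47. The CD4 and regulatory T cell sum came from Zbtb7b, Il2ra and Ikzf2, as Cd4 and Foxp3 had no gene-end peak in the endogenous table. The part of these marker sums in the results was not tested.

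By age, limma called homeobox peaks in naive cells at a share below that of all peaks. In naive cells 10 of 290 were higher in aged mice and none was lower (3.45%), against 5.24% of all peaks (4.08% higher, 1.16% lower). Of these, 5 were at Pax6 and the others at Nkx3-2 (a pair), Nkx2-2, Dlx6 and, 82001 bp away, Nkx1-1. The count was 5 with equal library totals and 3, 2, 5 and 1 without aged naive replicate 1, aged naive replicate 2, young naive replicate 1 and young naive replicate 2. Equal totals also moved the median of all peaks from 0.11 to -0.12 and that of homeobox peaks from 0.29 to 0.06.

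Nkx3-2, which directs axial skeleton and spleen formation, had the lowest adjusted p (chr5:41761276-41764203). Young naive libraries had 82.3 and 80.2 normalized reads and aged naive libraries 309 and 350. The log2 difference of 2.01 ± 0.29 (adjusted p = 0.000129) held under each alternative. OT-1 cells did not repeat that order: young Tterm had 167 to 263 (median 207) and aged Tterm 141 to 227 (median 173), above young naive by 1.38 ± 0.24 (adjusted p = 4.74e-05) and below aged naive by -0.83 ± 0.24 (0.00608, over the alternatives 0.00483 to 0.0827, the last without aged naive replicate 2).

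The Pax6 peaks had 77.8 and 63.3 against 230 and 149 (within the gene) and 15.4 and 12.8 against 51.2 and 62.1 (gene end), young against aged naive. Their differences were 1.39 ± 0.29 (adjusted p = 0.00476, over the alternatives 0.000143 to 0.167; lost without aged replicate 1 or young replicate 2) and 1.93 ± 0.40 (0.00431, 0.000753 to 0.0692; lost without aged or young replicate 2). At Nkx2-2, a gene of ventral neural tube and pancreatic islets (chr2:147183817-147184946), young naive cells had 23.8 and 19.2 and aged naive cells 77.3 and 85.0, a difference of 1.87 ± 0.39 (0.00438, 0.000296 to 0.0753; lost without aged or young replicate 2). Dlx6, at 17.4 and 15.2 against 47.0 and 58.2, differed by 1.63 ± 0.39 (0.0121, 0.00748 to 0.126) and lost its call without any 1 library and with equal totals. At these 4 peaks the young and aged naive libraries did not overlap. The summed myeloid and NK cell gene-end peaks given above were also higher in the aged naive libraries, as were those of CD8 T cell genes (5188 to 5221 against 4411 to 4466), melanocyte genes (559 to 598 against 393 to 400) and CD4 and regulatory T cell genes (1205 to 1307 against 1094 to 1142). Of the CD4 and regulatory T cell genes, Foxp3 had no gene-end peak. Cd4 had a median of 10.0 over all naive and OT-1 libraries, beside 627 at Zbtb7b, 536 at Il2ra and 325 at Ikzf2. Fibroblast genes were lower in aged naive libraries (260 to 268 against 307 to 339), as were endothelial genes (9 to 10 against 19 to 31) and the B cell genes above. The single highest peak held 4.85 to 4.89% of reads in young and 2.24 to 2.53% in aged naive libraries. The part of these sums and of the highest peak in the age difference was not tested.

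No homeobox peak was called by age with limma in endogenous Tterm (background 0.00836%), endogenous Tprog (0.166%), OT-1 Tterm (0.266%) or OT-1 Tprog (0.0951%). At an unadjusted p below 0.05 there were 21 and 25 of 255 and 16 and 39 of 290, beside 5122 and 9029 of 71756 and 6722 and 11253 of 84091 over all peaks. On the recovered reads edgeR called 0 in all 4 and DESeq2 0, 2, 0 and 1. Within batches 4 and 5, OT-1 Tterm gave 1 higher and 2 lower, and within batch 6 none with limma and 1 at an unadjusted p below 0.05. The largest leaning was in endogenous Tterm, where 185 of 255 homeobox peaks were above 0 in aged mice, with a median of 0.19 against 0.0018 over all peaks. That median was 0.30 for Hoxa (18 of 20 above 0), 0.29 for Hoxb (23 of 27) and 0.30 for Pax (25 of 30). In OT-1 Tterm the leaning had the other sign, with 192 of 290 below 0 and a median of -0.13 against 0.02, and it was 0.06 within batch 6 alone and -0.19 within batches 4 and 5. The summed Hoxa peaks of endogenous Tterm were 1674 to 2318 in young and 2407 to 3037 in aged mice and in RPM 85.77 to 124.5 and 125.0 to 164.6, without overlap on either scale. The peak with the lowest p by age in endogenous Tprog was at Hoxa7 (chr6:52217127-52217878), with 63.8, 52.4, 48.3 and 86.9 in young and 104, 162 and 159 in aged mice. It did not overlap and missed the threshold (1.17 ± 0.28, adjusted p = 0.0742, over the alternatives 0.00799 to 0.186). For OT-1 Tprog, leaving out aged replicate 2 gave 43 calls, 2 higher and 41 lower, and leaving out replicate 1 gave 1.

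Genes that act with or on homeobox genes were called in both directions. The shares of all peaks called higher and lower, against which the counts are read, were 22.4% and 17.9% in young Tterm against naive, 4.08% and 1.16% in naive cells by age, and 14.3% and 11.3% (young) and 6.75% and 5.37% (aged) in endogenous Tterm against Tprog. The TALE cofactors, Meis, Pbx and Pknox proteins that bind DNA beside Hox proteins, had 45 tested peaks in the naive and OT-1 table. In young Tterm against naive 13 were higher, at Meis2, Pbx3 and Pbx4, and 3 lower, with a median log2 difference of 0.473. In aged Tterm against naive 10 were higher and 12 lower, Meis2 among the lower, with a median of -0.311 (21.4% and 26.3% of all peaks). In aged naive against young naive 9 were higher, at Meis2, Meis3 and Pbx3, and none lower. In young endogenous Tterm against Tprog 4 of 38 were higher, at Pbx3 and Pbx4, and 3 lower, at Meis3 and Pbx3. The PRC2 genes, which write the H3K27 mark, gave 12 higher and 12 lower of 91 in young endogenous Tterm and 3 and 3 in aged cells, and the PRC1 genes 10 and 10 of 95 in young and 4 and 3 in aged. The young shares called, 26.4% and 21.1%, were near or below the 25.6% of all peaks. Genes of complexes and enzymes that oppose Polycomb (MLL complexes and H3K27 demethylases) had 25 tested peaks in the endogenous table. In young endogenous Tterm 3 were higher, at Dpy30, Psip1 and Rbbp5, and none lower (12%). A list of 14 homeobox genes used in lymphocytes, such as Satb1 and Hopx, had more lower than higher calls: 5 higher and 27 lower of 103 in young endogenous Tterm against Tprog, 1 and 13 in aged, 0 and 11 of 148 in young OT-1 cells (4.06% and 3.57% of all peaks), 8 and 13 in aged OT-1 cells (11.3% and 3.39%), and 18 and 64 in young Tterm against naive. Hhex, also on the list, went the other way. It was called only higher, in young and aged endogenous Tterm and in young Tterm against naive.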

How the data were processed

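The authors deposited signal values, reads in each peak divided by a size factor per library, in 2 tables normalized apart (17 and 21 libraries). The submitters' processing notes list MACS2 2.1.1, DESeq2 1.28.1, Bowtie2 2.2.9, SAMtools 1.3.1, Picard 2.8.0 and the mm10 build; read shifting and peak merging are not given in the sources used here. The signal steps of the deposited columns gave back whole reads for 100% of values (tolerance 0.01), which served for depth and count tests.

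Each peak went to its nearest protein-coding autosomal gene body within 100000 bp. Peaks with a mean of at least 10 were fitted as log2(value + 1) in limma 3.58.1 (R 4.3.3) with a variance trend, all groups of a table in 1 model and, in the second table, a batch 6 term, so log2 differences can depart from the ratio of means and understate those of low peaks. P-values were Benjamini-Hochberg adjusted over all peaks of the table and called below 0.05. They measure the spread between these pools, part of which may be technical. The members, gene lists and tests were chosen with earlier results of these data known. Named peaks are part of those a rule gave: up to 6 called peaks of lowest adjusted p per direction and comparison, the lowest unadjusted p where none was called, and each family's highest peak. Alternatives were a pseudocount of 4, no filter, a limit of 10000 bp, equal library totals, edgeR 4.0.16 and DESeq2 1.42.0 on recovered reads, a replicate block, no batch term, single batches and each library left out. Single-gene values of some genes of the set are not reported here. The fits were tested on simulated data. Same-numbered libraries were compared: none of 7 pairs of groups with at least 3 shared numbers had every correlation over 0.1.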

Additional observations from a re-analysis of the deposited data

Results flagged for a closer look

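Among 62 groups of 4 to 10 libraries at the named peaks, 4 held a library far from the others by Dixon's test, and chance flags about 1 in 20 groups. At the Hoxa7 gene end, aged OT-1 Tterm replicate 6 was highest of 6 with 107 normalized reads, and the next had 64.1. Near Hoxa13, young OT-1 Tterm replicate 7 was highest of 7 with 127, and the next had 81.1. Near Nkx2-6, the same library was lowest of 7 with 333, and the next had 463. At the Lhx1 gene end, young endogenous Tprog replicate 4 was highest of 4 with 423, and the next had 272.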

How the results depend on the processing

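Of 65 called differences at named peaks, 25 stayed called under every alternative and 58 under every alternative that left no library out, and none changed direction. That tally covers the named peaks described above. Aged OT-1 Tprog against naive and aged OT-1 Tterm against Tprog, which rest on 2 unlike Tprog libraries, were left out of it. Of 243 alternative counts of called homeobox peaks, over all comparisons, 54 moved by more than 1.5 times. With DESeq2 the count went from 0 to 2 for endogenous Tprog by age, from 0 to 1 for OT-1 Tprog by age, from 2 to 7 for Tadys against Tprog, from 7 to 12 for Tadys against Tterm, from 22 to 34 for young endogenous Tterm against Tprog and from 18 to 11 for aged OT-1 Tterm against Tprog. With equal library totals it went from 22 to 35 for young endogenous Tterm against Tprog, from 10 to 5 for naive age and from 18 to 5 for aged OT-1 Tterm against Tprog. That last count was also 9 with no filter on low peaks, 6 with edgeR, 6 with no batch term and 0 within batch 6. Within batches 4 and 5 OT-1 Tterm by age gave 3 calls in place of 0. Tadys against Tprog fell to 0 within 10000 bp of the gene. The causes were not tested.

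With a replicate block, Tadys against Tprog gave 1 call in place of 2 and young endogenous Tterm against Tprog 20 in place of 22. No pair of groups with at least 3 shared numbers had every correlation over 0.1. Of those with 2 shared numbers, only aged OT-1 Tprog and Tterm did (0.137 and 0.201). So few shared numbers cannot settle whether same-numbered libraries are paired, and the block is only an alternative. The block moved no other count by more than 1.5 times.

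Leaving out 1 library at a time gave these ranges: young endogenous Tterm against Tprog 14 to 26, aged 0 to 17, Tadys against Tterm 1 to 12, Tadys against Tprog 1 to 11, OT-1 Tprog by age 0 to 43, young OT-1 Tterm against Tprog 0 to 7, aged 1 to 52, naive age 1 to 5, young Tprog against naive 13 to 26, young Tterm against naive 33 to 70, aged Tprog against naive 29 to 84 and aged Tterm against naive 27 to 98. Where a group was left with 1 library, that library was assumed to vary like the others. Groups of 2 libraries limit the naive, Tadys and OT-1 Tprog comparisons most.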
